A study of Mus musculus with 36 samples.

Results

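The 666 DNase hypersensitive sites (DHS) described here were those more accessible in Ikaros than in control cells late in the time course. A DHS is a stretch of chromatin that the enzyme DNase I cuts readily, and DNase-seq counts the short fragments released there. The members were chosen by the mean of the 3 Ikaros values minus the mean of the 3 control values, which had to be at least 1 on the log2 scale at 12, 18 and 24 h. Of 52788 DHS, 666 (1.26%) met this rule, and 24 met its mirror image, a difference of -1 or lower at all of these times. Both counts depended on the scaling, with 192 higher and 80 lower after quantile normalisation. The values are log2 normalised read densities as deposited, so a difference of 1 is a 2-fold higher density. In bulk cells, more cells with an open site and a more open site in each cell cannot be told apart.

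The cells were B3, a mouse pre-B cell line. The Ikaros cells carried a retroviral MSCV vector that encodes HA-tagged wild-type Ikaros fused to the hormone-binding domain ERt2, followed by IRES and GFP, and the control cells carried the vector with ERt2 and no Ikaros. Both lines were sampled at 0, 2, 6, 12, 18 and 24 h of 4-hydroxytamoxifen at 0.5 µM, with 3 replicates numbered 4, 5 and 6 in each of the 12 groups, 36 libraries in all. At 0 h the labels still name the drug, whereas the study's methods state that these cells received none and were collected apart. A line transduced with one vector was compared with a line transduced with another, so a difference at 0 h is a difference between the lines. Promoter DHS were present at the 7 pre-B cell markers reported here (Cd79a, Cd79b, Vpreb1, Igll1, Ebf1, Pax5 and Rag1), at 0 of 4 T-cell markers, at 1 of 4 myeloid markers (Lyz2) and at 1 of 2 erythroid markers (Klf1).

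Ikaros, encoded by Ikzf1, is a zinc-finger transcription factor that large pre-B cells need in order to stop dividing and to differentiate. It can recruit chromatin-remodelling and repressive complexes, and it also acts at enhancers that are open in B-cell progenitors. Most regulatory elements that distinguish stages of a lineage lie in introns and between genes rather than at promoters. The fusion protein is held in the cytoplasm until 4-hydroxytamoxifen binds the hormone-binding domain.

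The sequences of 8 members show the DNA at sites with a large late difference, at sites past the threshold at 6 h and at a promoter. They are from RefSeq GRCm38.p6, plus strand, 5′ to 3′. In both Ikzf1 sequences the capitals mark coding-exon bases, 261 and 123 of them. In the others they mark the Ikaros core letters TGGGAA or the Runx letters TGTGGT on either strand. The Ikaros core occurred 0 times in these 8 sequences, and the Runx letters occurred 1 time in the Sgms1 sequence and 3 times in the Tmtc1 sequence. The Ikzf1 exon at chr11:11748163-11748716 and the Tmtc1 site at chr6:148344835-148345344 are shown by 300 bases each, the others in full.
Sgms1 intron, chr19:32343248-32343377: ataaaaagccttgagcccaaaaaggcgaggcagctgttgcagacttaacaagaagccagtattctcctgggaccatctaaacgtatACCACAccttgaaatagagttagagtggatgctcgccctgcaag
Ikzf1 coding exon, chr11:11748291-11748590: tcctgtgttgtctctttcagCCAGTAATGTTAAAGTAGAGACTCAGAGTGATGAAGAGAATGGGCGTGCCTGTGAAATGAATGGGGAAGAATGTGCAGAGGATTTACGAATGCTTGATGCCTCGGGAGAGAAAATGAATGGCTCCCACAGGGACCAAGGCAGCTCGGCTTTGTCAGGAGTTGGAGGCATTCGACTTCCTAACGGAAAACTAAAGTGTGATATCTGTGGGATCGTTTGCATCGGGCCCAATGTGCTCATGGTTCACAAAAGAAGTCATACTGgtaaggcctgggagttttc
Tmtc1 intron, chr6:148344940-148345239: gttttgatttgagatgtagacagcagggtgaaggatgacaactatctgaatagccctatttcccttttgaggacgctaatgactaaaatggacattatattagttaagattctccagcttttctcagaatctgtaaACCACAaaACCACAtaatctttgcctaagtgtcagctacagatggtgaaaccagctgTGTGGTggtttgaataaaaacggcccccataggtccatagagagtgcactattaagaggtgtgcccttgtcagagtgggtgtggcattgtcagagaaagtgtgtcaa
Vwa3a intron, chr7:120751405-120751536: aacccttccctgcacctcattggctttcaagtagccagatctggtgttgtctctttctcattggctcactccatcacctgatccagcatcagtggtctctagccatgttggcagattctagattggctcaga
Nek10 intron, chr14:14991780-14991906: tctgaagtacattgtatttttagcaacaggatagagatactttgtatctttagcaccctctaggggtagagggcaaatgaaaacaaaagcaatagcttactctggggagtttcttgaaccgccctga
Ikzf1 later coding exon, chr11:11758181-11758336: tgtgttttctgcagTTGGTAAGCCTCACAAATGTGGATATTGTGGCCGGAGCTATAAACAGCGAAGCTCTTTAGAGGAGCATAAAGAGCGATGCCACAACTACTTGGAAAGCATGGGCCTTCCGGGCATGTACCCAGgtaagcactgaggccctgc
intergenic, nearest Ebf1, chr11:45061863-45062019: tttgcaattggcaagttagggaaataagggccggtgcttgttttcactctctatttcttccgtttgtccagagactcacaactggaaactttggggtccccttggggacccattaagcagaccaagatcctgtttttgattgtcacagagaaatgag
Gm48855 promoter, chr9:64227916-64228060: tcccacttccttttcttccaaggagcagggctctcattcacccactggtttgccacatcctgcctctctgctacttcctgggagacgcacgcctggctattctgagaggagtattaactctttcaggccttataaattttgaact

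In the deposited values the members as a group went from level with the control at 0 h to above it at 2 h. This depended on the scaling: after quantile normalisation their median difference was 0.10 at 0 h and 0.36 at 2 h. At 0 h their median level was 3.26 in Ikaros and 3.31 in control cells. It was 3.61 and 2.95 at 2 h and 3.68 and 2.94 at 6 h. At 12, 18 and 24 h, the times that chose them, the medians were 3.87, 3.82 and 4.00 in Ikaros and 2.50, 2.51 and 2.54 in control cells. Over all DHS the medians stayed between 3.90 and 4.04 in all 12 groups. The plot of levels shows that the lines moved apart on both sides. Ikaros 24 h was above Ikaros 0 h in 581 of 666 members, against 53.1% of all DHS. Control 24 h was below Control 0 h in 648 of 666, against 54.2% of all DHS. These counts use the 24 h values that chose the members and are a description.

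**Figure D1:**
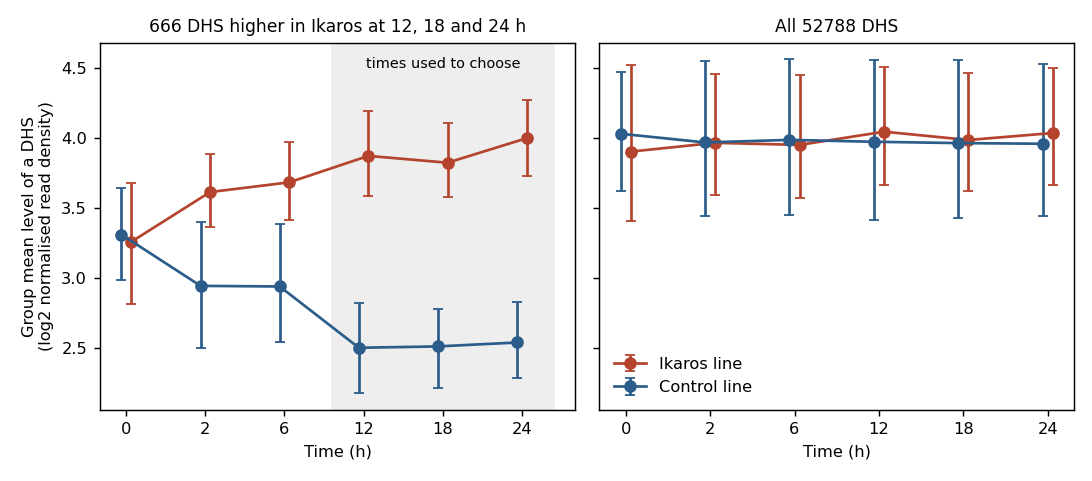
Group mean levels (log2 normalised read density) at each time in the Ikaros and the control line, for the 666 members (left) and all 52788 DHS (right). Points are medians over DHS, bars the quartiles, times are evenly spaced, and grey marks the times used to choose. The member medians are 3.26 and 3.31 at 0 h and 4.00 and 2.54 at 24 h.

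The members were low sites before the time course began. In the control line at 0 h, 488 of 666 (73.3%) lay in the lowest 25% of all DHS, and their median was 3.31 against 4.03 over all DHS. In Ikaros cells at 0 h, 389 lay in the lowest 25%. The SD over all DHS within a library was 0.61 to 0.76 in the Ikaros libraries from 2 to 24 h and 0.84 to 1.07 in the control libraries. At 0 h the order was opposite, with 0.85 to 1.05 in Ikaros and 0.75 to 0.77 in control libraries. The part of this difference in spread in the members' values was not tested, but the count that met the rule was 349 with each library scaled to the same SD (21 lower by the mirror rule), 192 after quantile normalisation (80 lower) and 172 once the trends with GC content, level and width were removed (17 lower).

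The members were mostly narrow elements away from promoters. Of the 666, 313 (47.0%) lay in introns, 287 (43.1%) between genes, 41 (6.16%) at promoters, which is within 1000 bp of a transcription start site (TSS), and 25 (3.75%) in exons. Over all DHS these shares were 35.4%, 32.9%, 25.9% and 5.77%. The median distance to the nearest protein-coding TSS was 40378.5 bp for members and 15702.5 bp for all DHS, and 43.8% against 24.4% lay over 50000 bp from one. At most 200 bp wide were 566 members (85.0%), against 46.1% of all DHS. The median width was 133 bp and the median GC content 40.7%, against 500 bp and 50% over all DHS. The share of DHS that were over 50% repeat sequence was alike, 5.26% of members and 5.46% of all. Members were found on 20 chromosomes, from 0.728% of DHS on chromosome 10 to 2.02% on X, and 0 of 30 on Y.

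Short motifs were scored as present or absent, on both strands, in the 150 bp around the centre of each DHS. For a DHS narrower than 150 bp, as the median member is, this window reaches past the DHS. The Runx letters TGTGGT were in 27.0% of members (95% Wilson interval 23.8 to 30.5, counting error only) and 18.3% of all DHS, and in 40.0% of the 100 members over 200 bp wide (30.9 to 49.8) against 17% of all DHS of that width. In the 566 narrow members the share was 24.7% (21.4 to 28.5), against 19.9% of all narrow DHS. The forkhead letters GTAAACA, which Foxo factors bind, were in 2.85% of members and 1.65% of all DHS. The E box CANNTG was in 64.6% and 58.7%, and its E-protein form CAGCTG, which is one of the CANNTG matches, in 13.4% and 11.9%. The Ikaros core TGGGAA was in 10.2% of members (8.13 to 12.7) and 13.2% of all DHS. The Ets core GGAA, which is also part of TGGGAA and of the PU.1-type GAGGAA, was in 77.6% and 84.0%, and GAGGAA in 22.7% and 19.7%. The Ebf1-type CCCNNGGG was in 6.91% and 10.5%, the AP-1 letters TGANTCA in 6.46% and 4.99%, and at least 1 CpG in 62.9% and 86.2%. Among narrow DHS only, the gaps were smaller for the E box (64.7% and 63.0%) and for GAGGAA (21.6% and 21.0%), and the AP-1 letters went the other way (5.65% and 5.93%). Among DHS over 200 bp the gaps were larger. There the E box was in 64.0% of members and 55.1% of all, and GAGGAA in 29.0% (21.0 to 38.5) and 18.6%. The AP-1 letters were in 11.0% (6.25 to 18.6) and 4.19%. A smaller share of members than of all DHS thus held a CpG, and a larger share held the Runx letters. The base composition of members differed too, as given above. A match describes the letters only.

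**Figure D2:**
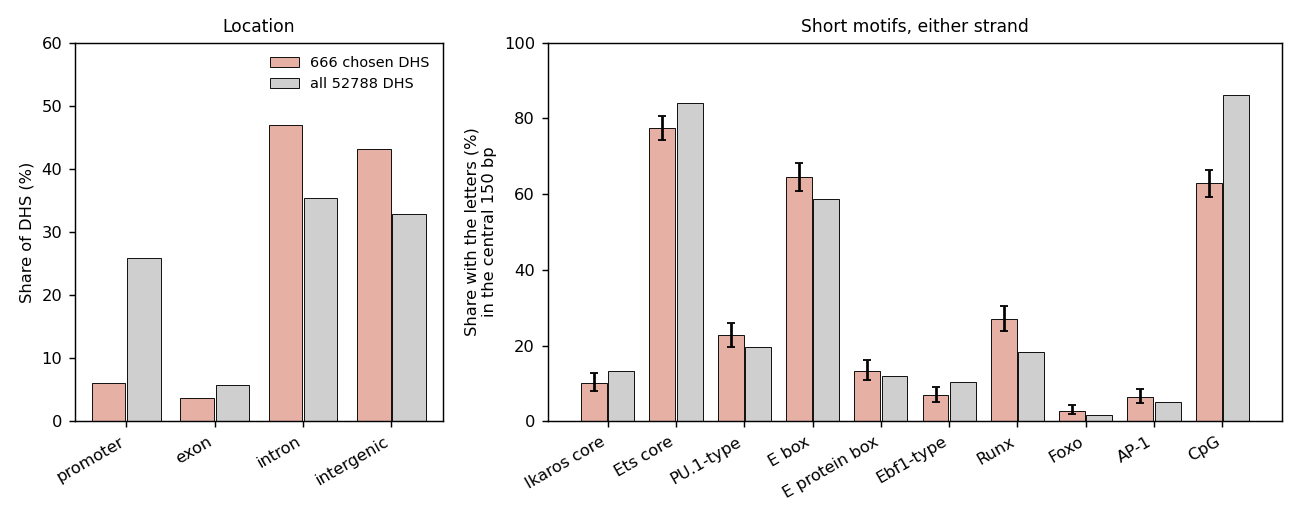
Shares (%) of the 666 members and of all 52788 DHS by location (left) and by letters present in the 150 bp around the DHS centre on either strand (right), with 95% Wilson intervals on the members. Promoter DHS were 6.16% of members and 25.9% of all DHS. Runx letters were in 27.0% and 18.3%, and CpG in 62.9% and 86.2%.

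The 0, 2 and 6 h values were not used to choose the members, and these were tested with limma over all DHS. At 0 h, 302 of 666 members were higher in Ikaros, and the median difference was -0.07, next to -0.06 over all DHS. The adjusted p was under 0.05 for 26 members that were higher in Ikaros, 3.90% of members, where 7.81% of all DHS were called higher. It was under 0.05 for 9 members that were lower, 1.35%, where 5.04% of all DHS were called lower. All 3 Ikaros values lay above all 3 control values in 61 members, against 12.4% of all DHS, and below them in 41, against 11.2%. A difference of at least 1 was found in 36 members, 5.41%, against 2.37% of all DHS. The called shares and the shares without overlap were thus below those over all DHS in both directions. The share with a difference of at least 1 was above. For the calls the order depended on the scaling. The 26 higher and 9 lower calls became 35 and 0 after quantile normalisation, 29 and 0 with libraries scaled to the same SD, and 23 and 0 with the trends removed. In this order, 5.26%, 4.35% and 3.45% of members were called, against 8.35%, 7.55% and 2.82% of all DHS. Of these settings only the last put the members above all DHS. The 35 calls became 17 without Control 0 h replicate 4, 19 without Control 0 h replicate 6 and 22 without Ikaros 0 h replicate 4. Over all DHS these fits called 8.55%, 4.39% and 8.37%.

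At 2 h most members were already higher in Ikaros. The difference was positive in 595 of 666, with a median of 0.67 against 0.01 over all DHS, and was at least 1 in 181 (27.2%), against 2.94% of all DHS. All 3 Ikaros values lay above all 3 control values in 206 members (30.9%), against 6.49% of all DHS, and below them in 3 (0.45%), against 7.07%. The limma test called 16 members higher (2.40%), where 0.17% of all DHS were called higher. It called 0 members lower, where 0.0246% of all DHS were, so that 0 is near the background. With the replicate block the count was 7. Leaving out Ikaros 2 h replicate 4 or 5 gave 3, leaving out its replicate 6 gave 4, and leaving out Control 2 h replicate 5 gave 51. The calls over all DHS moved too, to 0.0246%, 0.0303% and 0.0379% without Ikaros 2 h replicates 4, 5 and 6. Without Control 2 h replicate 5 they were 0.949%.

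At 6 h the picture was close to that at 2 h. The difference was positive in 609 members, with a median of 0.71 against 0.0047 over all DHS, and was at least 1 in 216 (32.4%), against 2.77% of all DHS. All 3 Ikaros values lay above all 3 control values in 259 members (38.9%), against 11.1% of all DHS, and below them in 3 (0.45%), against 10.9%. The limma test called 37 members higher (5.56%), where 0.422% of all DHS were called higher. It called 0 lower, where 0.155% of all DHS were, again near the background. The count was 23 without Control 6 h replicate 5, and 20, 16 and 11 without Ikaros 6 h replicates 4, 5 and 6. Over all DHS these fits called 0.307%, 0.188%, 0.0985% and 0.072%.

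The change of the difference from 2 h to 6 h passed the threshold in 0 members and in 0 DHS in all by limma. At an unadjusted p under 0.05 there were 43 members (6.46%) and 2119 DHS (4.01%). The authors' noise correction left the 12 group means in 6 dimensions of 11 possible, so groups borrow from each other. Within those dimensions 4.28% of the 2 h contrast, 30.6% of the 6 h contrast and 33.0% of the 0 h contrast lay in the span of the 12, 18 and 24 h contrasts that chose the members. By this share the 2 h contrast was the least tied to the choice. The share compares directions only and does not weigh how much the values vary along each.

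**Figure D3:**
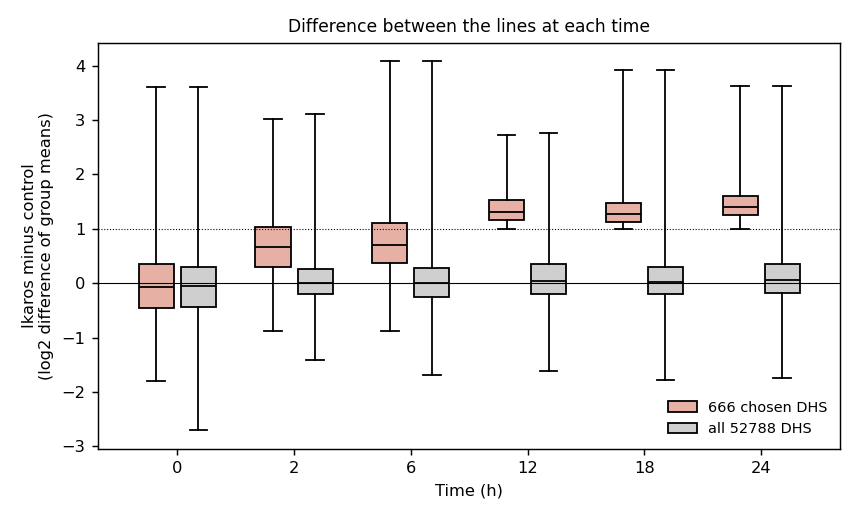
Ikaros minus control (log2 difference of group means) at each time for the 666 members and all 52788 DHS. Boxes are quartiles with the median, whiskers the full range, and the dotted line is the difference of 1 that chose the members at 12, 18 and 24 h. The member medians are -0.07, 0.67 and 0.71 at 0, 2 and 6 h.

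Past the threshold at 2 h or 6 h were 44 members, 9 at both times and 8 at 0, 2 and 6 h. The shares of all DHS called at these combinations of times were not computed. Taken singly, 7.81%, 0.17% and 0.422% of all DHS were called higher at 0, 2 and 6 h. Wide members passed more often than narrow ones: at 6 h, 20 of the 100 members over 200 bp and 17 of the 566 others were called, and at 2 h, 10 and 6. The wide counts at both times include sites over Ikzf1 coding exons. Among all DHS the shares called higher were 0.516% of the wide and 0.313% of the narrow at 6 h, and the other way round at 2 h, 0.112% and 0.239%. The median SD between replicates of a member was 0.27 to 0.34 in Ikaros groups from 2 h on and 0.48 to 0.67 in the control groups. By location, 15 of the 37 calls at 6 h were in introns, 14 between genes, 6 in exons and 2 at promoters. Of the 6 exon calls 5 were in Ikzf1, described next. Over all DHS the shares called higher at 6 h were 0.422% in introns, 0.293% between genes, 0.624% in exons and 0.542% at promoters.

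Of the members, 5 lay in Ikzf1 itself, all over coding exons, and the last of these exons held the largest difference of all 52788 DHS at 0 and 6 h. At chr11:11768688-11769688, over the last coding exon, the Ikaros values were 6.62, 6.25 and 6.52 at 0 h, 5.60, 5.86 and 5.70 at 2 h and 6.05, 6.42 and 6.55 at 6 h. The control values were 2.24, 3.25 and 3.09, then 3.32, 2.17 and 2.61, then 1.78, 2.85 and 2.14. The lines did not overlap at any of these times, and the difference at 6 h was 4.08 (SE 0.32, limma adjusted p = 7.89e-09). At chr11:11748163-11748716 the difference was 2.72 at 0 h (SE 0.27, limma adjusted p = 9.08e-07), 2.74 at 2 h and 2.91 at 6 h. Both sites passed the threshold at 6 h in every alternative run. At 6 h the other exon members differed by 3.38 (chr11:11758180-11758336), 2.29 (chr11:11707597-11708097) and 2.08 (chr11:11761028-11761528), and all passed.

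All 14 DHS of the Ikzf1 gene divide by whether they cover coding bases. Of the 8 coding blocks of the gene, 6 held a DHS, and the 6 DHS differed by 2.08 to 4.08 at 6 h and by 1.68 to 3.61 at 0 h. All 6 were called higher at 0 h and at 6 h, and 5 of them were members. The 6th, at chr11:11753826-11754354, missed the rule with 0.92 at 12 h. The 8 Ikzf1 DHS without coding bases differed by -0.51 to 0.94 at 6 h, and 0 of them were called at 2 or 6 h and 1 at 0 h. Ikaros cells hold the Ikaros coding sequence a further time, in the vector, and fragments of the vector and of the exons of the locus cannot be told apart in these values. Without the 5 Ikzf1 members, 32 members were called at 6 h and 13 at 2 h.

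**Figure D4:**
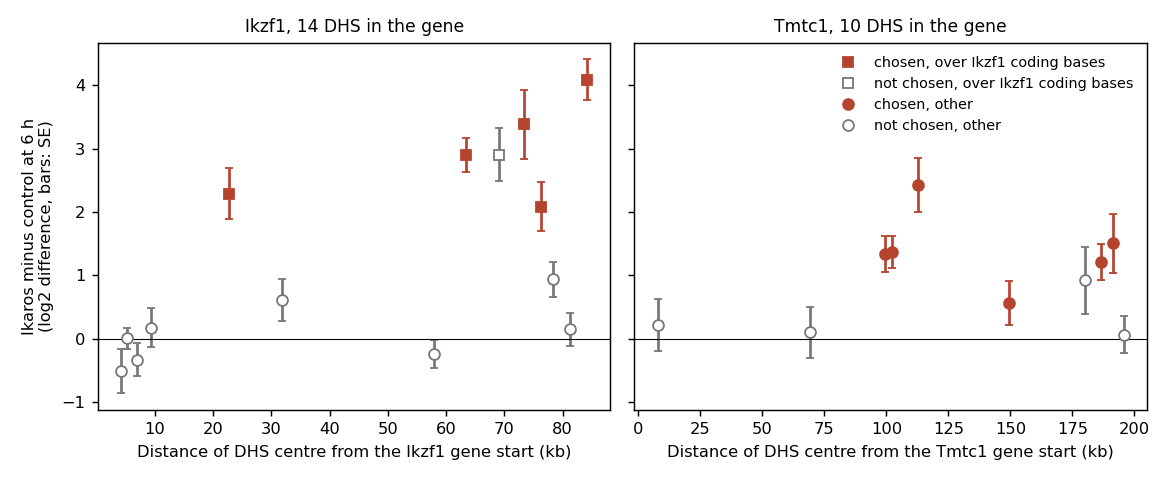
Ikaros minus control at 6 h (log2 difference, bars SE) for each DHS of Ikzf1 and Tmtc1 against the distance of its centre from the gene start (kb). In Ikzf1 the 6 DHS over coding bases lie between 2.08 and 4.08 and the 8 others between -0.51 and 0.94. In Tmtc1 all 10 are above 0, and the 6 members lie between 0.56 and 2.42.

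The gene with the most members was Tmtc1, which encodes a protein of the endoplasmic reticulum membrane. It held 6 members among its 10 DHS, all in introns, and 4 of them followed each other without another DHS between, over 50506 bp, the longest such run in the table. At chr6:148341737-148342239 the Ikaros values were 3.92, 4.43 and 4.11 at 0 h, 3.74, 3.75 and 3.85 at 2 h, and 4.04, 4.07 and 4.10 at 6 h. The control values were 2.53, 2.98 and 3.02, then 2.42, 2.65 and 2.69, then 2.46, 2.81 and 2.85. Ikaros was higher at each time without overlap, with differences of 1.31 at 0 h (SE 0.26, limma adjusted p = 0.00177), 1.19 at 2 h and 1.37 at 6 h. Its neighbour at chr6:148344835-148345344 had a late difference of 1.88 or more and differed by 0.60 at 0 h and by 0.88 at 2 h, neither of which passed, and by 1.34 at 6 h (SE 0.28), which passed (limma adjusted p = 0.0228). The largest 6 h difference in the gene was 2.42, at chr6:148331650-148331834 (SE 0.43, limma adjusted p = 0.00513). Of the 10 Tmtc1 DHS, 10 were higher in Ikaros at 6 h and 4 passed, all of them members, and the median of the 4 that were not members was 0.16. With the replicate block 3 passed. At 0 h, 4 of the 6 members already passed.

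Mgat5, which encodes a Golgi enzyme that branches N-glycans, held 4 members among 16 DHS. The wide one, at chr1:127309062-127309640, differed by 0.76 at 0 h, by 0.76 at 2 h and by 1.24 at 6 h (SE 0.23). Its 0 h difference already passed (limma adjusted p = 0.027), and its 2 h difference did not. The 6 h difference passed too (limma adjusted p = 0.00694). Of 16 alternatives, 10 lost the 0 h call and 5 lost the 6 h call. The 3 narrow ones differed by 0.31 to 1.51 at 2 h and by 0.26 to 0.97 at 6 h, and none of these passed. Asap1, Kcnq5, Macrod2, Nfia and Wdfy2 held 3 members each, 16 genes held 2 and 276 held 1. In all, members overlapped 300 protein-coding genes.

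A run of 3 members without another DHS between lay at chr17:52163136-52183000, for which the nearest protein-coding start is that of Satb1, a chromatin organiser of lymphocytes, 329911 bp or more away. The first of them overlaps an exon of the noncoding gene Gm19585. Its Ikaros values were 3.86, 3.76 and 3.40 at 2 h and 3.88, 3.98 and 3.65 at 6 h, and its control values 1.13, 2.90 and 2.14 and 3.49, 1.62 and 2.39. The lines did not overlap at 2 or 6 h, but the differences of 1.62 and 1.34 did not pass (SE 0.42, limma adjusted p = 0.102 and 0.134). The control replicates spread more widely than the Ikaros replicates here. Besides these runs there were 33 pairs of neighbouring members.

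Among B-lineage transcription factors, 10 of the 362 DHS assigned to the 23 listed genes were members (2.76%, against 1.26% of all DHS). They lay at Fli1 (3), Ebf1 (2), Mef2c (2), Bcl11a, Id2 and Runx1. Over the 362 DHS the median difference was 0.07 at 2 h and 0.11 at 6 h. The test called 4 of them higher at 2 h and 7 at 6 h, where 0.17% and 0.422% of all DHS were called higher. It called 0 of them lower at either time, near the 0.0246% and 0.155% of all DHS. The list therefore moved as a whole by little, and a few sites of it differed.

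Fli1 encodes an Ets-family factor of blood progenitors and B cells, and 3 members were assigned to it. In its intron at chr9:32425408-32425932 the Ikaros values were 5.19, 5.00 and 5.26 at 0 h and 5.07, 5.07 and 4.82 at 6 h. The control values were 3.34, 3.90 and 3.68 at 0 h and 3.25, 3.53 and 3.07 at 6 h. The lines were apart from the start, by 1.51 at 0 h (SE 0.21, limma adjusted p = 0.000152), 1.15 at 2 h and 1.70 at 6 h. Upstream of the gene, at chr9:32617483-32617655 and 75974 bp from the Fli1 start, the lines were level at 0 h, with 4.26, 4.22 and 4.65 in Ikaros and 4.45, 4.12 and 4.61 in control cells. The Ikaros values were 5.35, 5.45 and 4.89 at 2 h and 5.07, 5.26 and 5.42 at 6 h, with 3.95, 3.52 and 4.65 and then 3.97, 4.32 and 3.69 in control cells. This site differed by -0.02 at 0 h, by 1.19 at 2 h (limma adjusted p = 0.0564) and by 1.26 at 6 h (SE 0.27), of which the latter passed (limma adjusted p = 0.0271). The 3rd member, at chr9:32612840-32613353, differed by 0.21, 0.76 and 0.50 at 0, 2 and 6 h and did not pass. The upstream call at 6 h was lost in 8 of 16 alternatives, that of the intron site in 1.

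Ebf1 encodes the factor that, with Pax5, commits cells to the B lineage, and Bcl11a encodes a zinc-finger factor needed for early B cells. The site at chr11:45061862-45062019, for which Ebf1 is the nearest gene at 444623 bp, had Ikaros values of 4.55, 3.82 and 3.83 at 6 h and control values of 2.24, -0.26 and 1.62. It differed by 2.87 (SE 0.49, limma adjusted p = 0.0043), with 1 control value of -0.26 far under the others. At 0 h the lines overlapped there, with a difference of 0.35. The Bcl11a site at chr11:24357517-24357673 differed by -0.46 at 0 h, -0.13 at 2 h and 1.57 at 6 h, and did not pass at any of these times.

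Among adhesion and migration genes 3 of 132 DHS were members, and 1 of 127 among genes of pre-B receptor signalling. Itga5, the alpha chain of a fibronectin receptor, held 2 of them. At chr15:103361398-103361578 in its intron the lines were level at 0 h, with 3.74, 3.95 and 3.52 in Ikaros and 3.93, 3.86 and 3.53 in control cells. At 6 h the values were 4.33, 4.69 and 4.16 against 3.22, 3.34 and 2.69, without overlap, a difference of 1.31 (SE 0.31, limma adjusted p = 0.0408). Blocking on the replicate number gave an adjusted p of 0.0581, and the call was lost in 11 of 16 alternatives. The other Itga5 member, at chr15:103355490-103355620, went from -0.58 at 0 h and -0.48 at 2 h to 0.37 at 6 h and passed at none of them. The intronic site of Cd44, a hyaluronan receptor, at chr2:102885424-102885580 differed by 1.67 at 2 h and 1.46 at 6 h, and did not pass. The member nearest to Lyn, a kinase of the B-cell receptor, at chr4:3631744-3632277 differed by 0.48 and 0.62 at these times and did not pass. The 6 lists on recombination, the cell cycle, glycolysis, the interleukin 7 receptor, T-lineage and Notch genes, and progenitor and myeloid genes held 0 members among 461 DHS. Their median differences at 6 h lay between -0.14 and 0.25.

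By the smallest of the 12, 18 and 24 h differences, the 5 leading sites outside Ikzf1 and Tmtc1 were all narrow, and 4 lay in introns. In 4 of them the 0 h difference did not pass, and the other, in Plcb1, was lower in Ikaros at 0 h and is described further on. At chr19:32343247-32343377, in an intron of Sgms1, which encodes sphingomyelin synthase, the Ikaros values were 3.39, 2.93 and 2.69 at 0 h, 4.03, 3.85 and 3.64 at 2 h and 3.55, 4.40 and 3.88 at 6 h. The control values were 3.44, 3.85 and 2.49, then 3.99, 2.71 and 3.60, then 3.37, 2.19 and 2.46. The lines overlapped at 0 and 2 h and not at 6 h, where the difference was 1.27 (SE 0.40, limma adjusted p = 0.137). At 12, 18 and 24 h, the times used to choose it, the differences were 2.21, 2.34 and 2.43. The intronic sites of Vwa3a (chr7:120751404-120751536) and Nek10 (chr14:14991779-14991906) differed by 0.51 and 1.03 at 2 h and by 1.04 and 1.10 at 6 h, without passing. The intergenic site at chr3:44912793-44912930, nearest to Pcdh10, differed by -0.999, -0.02 and 0.44 at 0, 2 and 6 h.

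**Figure D5:**
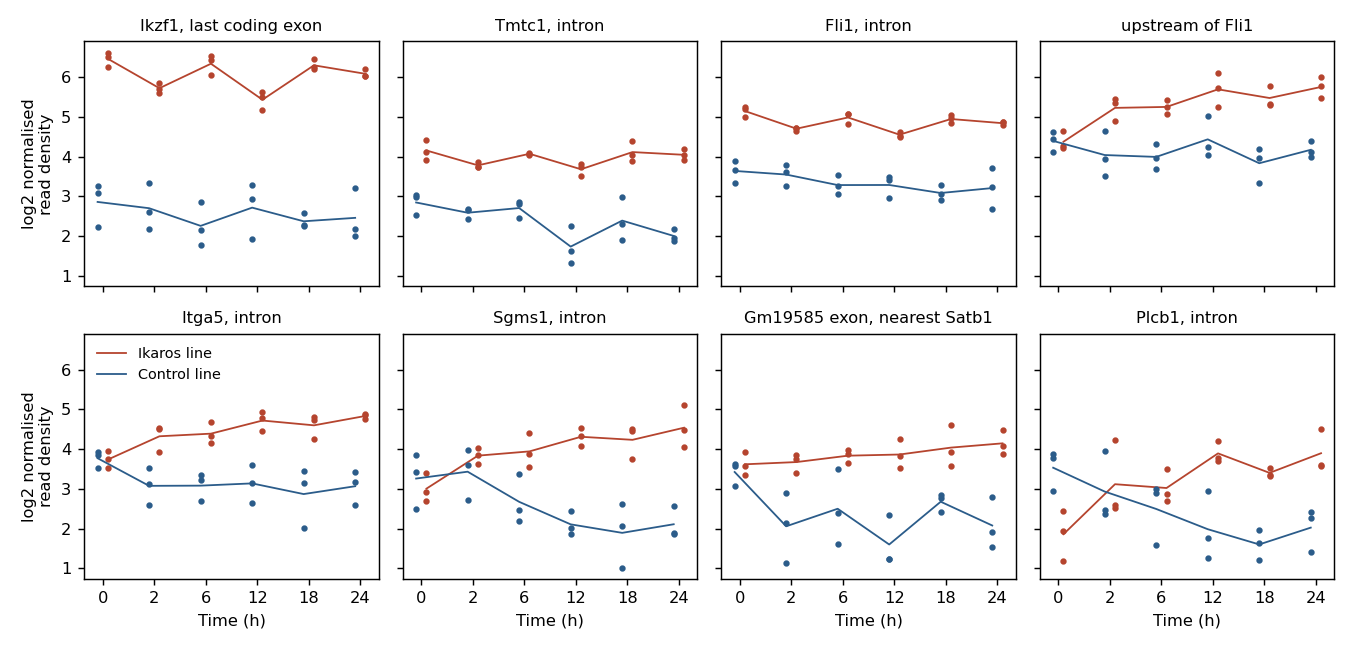
Log2 normalised read density of 8 members in each library (points) with group means (lines) in the Ikaros and control lines. Times are evenly spaced. Ikzf1, Tmtc1 and the Fli1 intron were apart at 0 h by 3.61, 1.31 and 1.51, whereas the sites upstream of Fli1 and in Itga5 differed by -0.02 and -0.03 at 0 h and by 1.26 and 1.31 at 6 h.

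The 5 largest called differences at 2 h lay in Ikzf1 (2 exons), in an intron of Celf2, which encodes an RNA-binding splicing factor, and between genes near Prkcq and Tmsb10. The site near Prkcq, a protein kinase C of lymphocytes, at chr2:10999452-10999582 had 3.77, 3.59 and 3.21 in Ikaros and 1.07, 1.54 and 0.95 in control cells at 2 h. Its difference of 2.34 passed (SE 0.41, limma adjusted p = 0.0106), as did the 6 h difference of 2.18 (limma adjusted p = 0.00987). The 0 h difference was 0.40. The Celf2 site at chr2:7083314-7083444 differed by 1.89 at 0 h, 2.47 at 2 h and 1.51 at 6 h, and passed at 0 and 2 h, but at 2 h not with the replicate block (limma adjusted p = 0.0678). The site near Tmsb10 at chr6:72949698-72949828 had control values of 2.06, 2.17 and 0.03 at 2 h and of 3.72, 4.37 and 4.27 at 6 h, so that its difference was 2.20 at 2 h (SE 0.49, limma adjusted p = 0.0483) and -0.56 at 6 h. With the block its adjusted p at 2 h was 0.0686. The 2 h calls of the Celf2 and Tmsb10 sites were each lost in 12 of 15 alternatives, and that of the Prkcq site in 8.

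Members called at 0 h were higher or lower in Ikaros, but 0 were called lower after quantile normalisation, with the trends removed, with libraries scaled to the same SD or with a spread per group. An exon shared by Tmem140 and Cyren, the latter a regulator of end joining, at chr6:34874474-34874671 had 5.21, 5.15 and 5.11 in Ikaros and 2.34, 2.54 and 4.13 in control cells at 0 h. Its difference was 2.15 at 0 h (SE 0.42, limma adjusted p = 0.00163), 2.20 at 2 h and 3.02 at 6 h. An intron of Fat1, which encodes a large cadherin, at chr8:44938040-44938202 differed by 2.19 at 0 h (limma adjusted p = 0.0216), and its 2 and 6 h differences of 1.69 and 1.85 did not pass. Of the 9 members called lower at 0 h, 0 were called lower at 2 or 6 h. In an intron of Plcb1, a phospholipase C, at chr2:135356418-135356556 the Ikaros values were 2.45, 1.18 and 1.95 at 0 h and 4.24, 2.52 and 2.59 at 2 h. The control values there were 3.89, 2.95 and 3.77 and then 3.96, 2.36 and 2.47, so the difference went from -1.67 (SE 0.49, limma adjusted p = 0.0246) to 0.19. The sites nearest to Vmn2r79 (chr7:87113785-87113933) and Ednrb (chr14:104033716-104033846) and in an intron of Strn3 (chr12:51666829-51666957) differed by -1.60, -1.41 and -1.40 at 0 h and by 0.43, 0.45 and 0.24 at 2 h. The 0 h call was lost in 10 of 15 alternatives at Plcb1, 11 of 16 at the Vmn2r79 site, and 12 of 15 each at the Ednrb and Strn3 sites. In 40 members (6.01%), against 1.81% of all DHS, all 3 Ikaros values lay below the controls at 0 h and above at 24 h. This is a description, since the 24 h values chose the members. At 0 h alone, all 3 Ikaros values lay below the controls in 41 members (6.16%), against 11.2% of all DHS. The 8 members called at 0, 2 and 6 h, all higher, were 3 Ikzf1 exons, the Tmem140 exon, the Fli1 intron, the Tmtc1 site and, named after their values were seen, intergenic chr2:109510553-109511062 (nearest gene Bdnf) and chr5:23409951-23410596 (nearest gene Kmt2e). With the replicate block 6 of the 8 held, without the Tmtc1 site and the Ikzf1 exon at chr11:11761028-11761528, whose adjusted p at 2 h became 0.0631 and 0.0541.

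Promoter members were few, and those with the largest late differences were mostly at noncoding or predicted genes. The site at chr9:64227915-64228060 lies at Gm48855, within Map2k1, and its differences at 0, 2 and 6 h were 1.64, 0.51 and 1.64. The site at chr7:47354340-47354502 lies at the start of Mrgpra1, a sensory-neuron receptor, and differed by 0.32, 0.73 and 1.07. At Gm39526 (chrX:94731756-94731886) the differences were -0.72, 2.03 and 0.48, and at Gm49197 (chr14:87493695-87494196) -0.70, 0.36 and 1.49. At Gm19434 (chr6:135188852-135188933) they were 0.37, 0.70 and 0.10, and at Gm29600 (chr9:103408245-103408383) 1.06, 0.47 and 0.40. None of these 6 passed at 0, 2 or 6 h. Promoter members differed by a median of 0.65 at 2 h and 0.73 at 6 h, exon members by 1.21 and 1.09, introns by 0.63 and 0.71, and intergenic members by 0.68 and 0.69. Of the 25 exon members, 5 lay over Ikzf1 coding exons, and the exon medians without these were not computed.

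The threshold cut through a continuous range. Just inside it, with a smallest difference of 1.00, lay sites in introns of Kcnq5 and Fam155a and at Mir6541. Just outside, also with 1.00 when rounded, lay sites nearest to Kctd16, B3galt2 and Gng12. At 6 h the former differed by 1.07, 0.99 and 0.67 and the latter by 0.45, 0.53 and 1.05.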

How the data were processed

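DNase-seq was measured in 36 libraries of the B3 line. By the published methods, reads were cut to 36 bp and aligned by the authors to mm10 (GRCm38) with Bowtie2. HOMER was run on every replicate for narrow and for broad peaks, calls overlapping in all 3 replicates of a time point were joined into 1 list, and reads per DHS were counted with bedtools. After a filter on low DHS the authors applied RPKM, TMM and then ARSyN, which removes structured noise. The values they deposited are log2 values from the end of this chain. The base was settled from the values: base 2 gives sums of 369487 to 432755 RPM over the DHS of a library, base e 1575615 to 2338647, more than a library can hold. The depth of each library is not in the values, so no counting interval is given for them.

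Members were found by the rule on group means. Differences at 0, 2 and 6 h and the change from 2 h to 6 h were fitted in limma 3.58.1 under R 4.3.3 (12 group means, all 36 libraries, trended variance), two-sided, with Benjamini-Hochberg adjustment over 52788 DHS and a threshold of 0.05. The fit was run on simulated data with independent noise and, for each DHS, the same spread in all groups. The groups here had unequal spread, so this run checked the code and not the calls. No test was run at 12, 18 or 24 h, which chose the members. The members, lists and tests were chosen with earlier results of these data known, and 1 listed pre-B cell marker is not reported here.

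DHS were located with GENCODE vM21, and the nearest gene is the protein-coding gene with the nearest TSS to the DHS centre. Coordinates are as in the file, whose start may count from 0 or 1, and printed sequences use the bases both readings share. Named DHS were the 8 members with the largest smallest difference over 12, 18 and 24 h, the 5 largest calls at 6 h and at 2 h, the 4 largest calls each way at 0 h, 6 promoter members, up to 3 members a gene list (10 lists, 154 genes), the genes with the most members, the longest runs and the 3 DHS on each side of the threshold.

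The labels give each replicate number a batch (4, 5 and 6 for batches 11, 12 and 13), which pairs the samples. The deviations of same-numbered libraries of both lines correlated between -0.18 and 0.18 over 18 pairs (median -0.02). Alternatives were the replicate block, only the groups in the contrast, a spread per group, quantile normalisation, trends removed, the lowest 25% by mean left out, each library or replicate number left out, medians in place of means, other promoter distances and a 100 bp motif window. Scaling each library to the same SD was added after the data were seen.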

Additional observations from a re-analysis of the deposited data

Results flagged for a closer look

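In 4 named members all 3 Ikaros values lay below all 3 control values at 0 h and above them at 24 h. This held for 40 members (6.01%) and for 1.81% of all DHS. The 24 h side of it comes from values that chose the members. The 0 h side alone held for 41 members (6.16%) and for 11.2% of all DHS. The difference went from -1.67 to 1.87 in the intron of Plcb1, from -1.40 to 1.10 in the intron of Strn3, from -0.72 to 1.54 at Gm39526 and from -0.90 to 1.62 in the intron of Fam155a. The difference between these times was not tested, because the 24 h values chose the members. Of the 4, the Plcb1 and Strn3 sites were past the limma threshold at 0 h, and these calls were lost in 10 and 12 of 15 alternatives, among them quantile normalisation, trends removed, libraries scaled to the same SD and a spread per group.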

How the results depend on the processing

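No named call reversed under any alternative, and 4 of the 43 calls of named DHS at 0, 2 and 6 h were lost in none: the Ikzf1 exons at chr11:11748163-11748716 and chr11:11768688-11769688 at 0 and 6 h. The other 39 were lost in 1 or more. The count of members by rule was 192 after quantile normalisation, 172 with the trends removed, 349 with libraries scaled to the same SD (an alternative chosen after seeing the data), 150 with the lowest 25% left out, 509 with medians (389 of them members) and 465 to 728 when replicates or libraries were left out. The median difference at 0 h turned positive with quantile normalisation (0.10), the trends removed (0.13) and libraries scaled (0.065). At 2 h it was 0.36, 0.44 and 0.44 under these, and at 6 h 0.51, 0.53 and 0.56. Members called at 0 h numbered 23 with the trends removed, 13 with the lowest 25% left out, 13 with a spread per group and 2 with only the groups in the contrast. At 2 h they numbered 6 after quantile normalisation, 4 with the lowest 25% left out, 4 with a spread per group, 0 by limma with only the groups in the contrast (179 at an unadjusted p under 0.05) and 7 with the replicate block. At 6 h they numbered 13 with the lowest 25% left out, 56 with a spread per group and 3 with only the groups in the contrast, whose fit has fewer libraries. The replicate block gave 34 calls at 0 h and 30 at 6 h, and none for the change from 2 h to 6 h. Leaving out replicates or libraries gave 14 to 40 calls at 0 h, 3 to 51 at 2 h and 3 to 40 at 6 h, and 0 for the change. The calls over all DHS moved with these settings too, as given above for single libraries. At 6 h, leaving out a replicate number in all groups gave 14, 3 and 6 calls without replicates 4, 5 and 6. Where fewer libraries or DHS do not account for a change by construction, the cause was not tested. Promoter members numbered 27 within 500 bp and 94 within 2500 bp of a TSS, against 22.2% and 33.2% of all DHS. The depth of each library is not in the values, and the study's methods give only a minimum number of reads per replicate. The members were mostly narrow (median 133 bp) and low (control median 2.54 at 24 h). At a given density a narrow site holds fewer reads than a wide one, and the reads behind each value are unknown.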
